A study of Mus musculus with 6 samples.

Results

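Retinoic acid is a derivative of vitamin A that enters the nucleus and acts as a ligand of transcription factors. Retinol is oxidized to retinal, retinal is oxidized to retinoic acid by the ALDH1A enzymes, the CRABP proteins carry the product in the cytosol, the RAR receptors bind it together with RXR partners, and the CYP26 enzymes degrade it. In the developing mouse retina Aldh1a1 is known as the dorsal and Aldh1a3 as the ventral enzyme, while Aldh1a2 is mainly known from the tissue around the eye. Several genes of the pathway, among them Rarb, Cyp26a1, Crabp2, Stra6 and Dhrs3, are themselves known to respond to retinoic acid.

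The genes described here are Aldh1a1, Aldh1a2, Aldh1a3, Crabp1, Crabp2, Cyp26b1, Rara, Rarb and Rarg, chosen by symbol: 9 of the 55401 gene identifiers in the expression table, each with 1 identifier. The RNA came from mNRPCs, an adult mouse culture of neural retinal progenitors kept by the study's laboratory. In 3 libraries it was taken 48 h after transfection with an siRNA against Ifitm3, and 3 libraries are of control cells, called control siRNA here. The titles of these libraries read only Control. The paper used a blank and a scramble control and does not state which was sequenced. Ifitm3 encodes a membrane protein induced by interferon and known for blocking virus entry. Both groups grew on Matrigel in N2/B27 medium with bFGF and CHIR99021, an inhibitor of the kinase GSK3 that activates WNT signaling. B27 is sold with and without vitamin A, and which version was used is not stated in what was read. The question was which transcripts of the retinoic acid pathway these cells contain, how they differed after the knockdown and how they varied between libraries.

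Levels are in FPKM, a fragment count corrected for transcript length and for the size of the library. Since the sequencing depth is unknown, the counting error of a value cannot be given. In each library 11966 to 12274 genes reached 1 FPKM. Ifitm3 was at 350, 546 and 398 FPKM in Ifitm3 siRNA libraries 1, 2 and 3, against 3121, 2120 and 2509 FPKM in control siRNA libraries 1, 2 and 3. No label says that the replicates were separate cultures, and the spread behind the p-values may therefore be technical. Of 11 retinal progenitor markers 7 averaged 1 FPKM or more: Pax6, Six3 and Sox2 were detected, but Rax and Six6 had means under 0.1 FPKM. All 6 photoreceptor markers, all 4 endothelial and all 4 microglial markers were also under 0.1 FPKM on average. The fibroblast or mesenchyme markers were mixed, and 5 of 9 averaged 1 FPKM or more, namely Col3a1, Pdgfra, Pdgfrb, Twist1 and Prrx1. The others were low, with Col1a1 at 0.22, Col1a2 at 0.045, Dcn at 0.25 and Lum at 0.0033 FPKM on average. In this bulk RNA, fewer cells of a type and less RNA per cell cannot be told apart.

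The cells contained a large amount of RNA of the cytosolic carrier gene Crabp1 and little RNA of the synthesizing enzymes. Crabp1, which encodes cellular retinoic acid binding protein 1, averaged 1850 ± 227 FPKM in Ifitm3 siRNA cells and 2544 ± 131 FPKM in control siRNA cells (SD, n = 3 each). This placed it at rank 21 of all genes in Ifitm3 siRNA cells and at rank 18 in control siRNA cells. The receptor gene Rarg followed at 33.6 ± 2.98 FPKM in Ifitm3 siRNA cells and 38.1 ± 9.62 FPKM in control siRNA cells (SD, n = 3 each). Crabp2, Rara and Cyp26b1 came next, with means between 8.15 and 29.9 FPKM, and then Rarb and Aldh1a1. In both groups the values of Crabp1 did not overlap with those of Rarg. Rarg overlapped with Crabp2, and Rarb with Aldh1a1, in both groups, so these neighbors cannot be ordered. Rara and Cyp26b1 overlapped and changed places between the groups, and Cyp26b1 overlapped with Rarb in Ifitm3 siRNA cells. Crabp2 overlapped with Rara, its next neighbor in Ifitm3 siRNA cells, and with Cyp26b1, its next neighbor in control siRNA cells. The means of Crabp2 rested on the replicate 2 libraries, at 61.3 and 75.2 FPKM, against 3.30 to 9.19 FPKM in the remaining libraries. Those of Cyp26b1 did so too, at 24.1 and 23.6 FPKM. In the remaining libraries Cyp26b1 was at 0.20 to 1.11 FPKM, in each of them below Rarb and Aldh1a1. Aldh1a3 lay between 0.01 and 0.35 FPKM in Ifitm3 siRNA cells and between 0.07 and 0.12 FPKM in control siRNA cells. Aldh1a2 was listed at 0.02 FPKM in Ifitm3 siRNA library 2 and at 0 in the other 5 libraries.

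**Figure D1:**
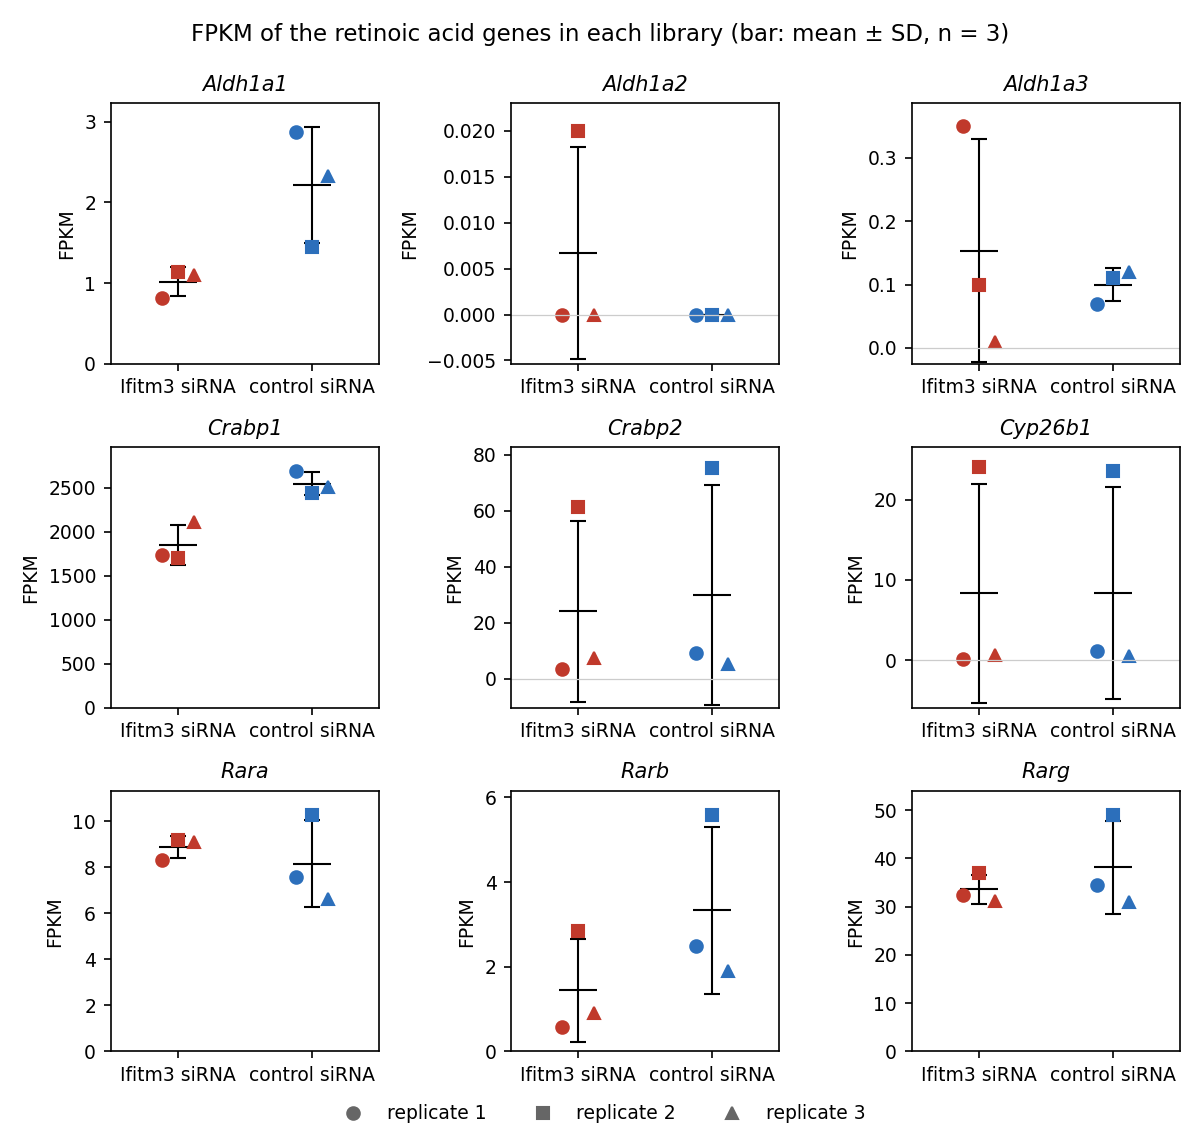
FPKM of the 9 genes by library (vertical axes from 0 or below, each gene with its own scale), for Ifitm3 siRNA and control siRNA; each symbol is 1 library with its replicate number, and the bar is the mean ± SD (n = 3). The groups did not overlap in Aldh1a1 and Crabp1, and in Crabp2 and Cyp26b1 the replicate 2 library of each group stood far above the other 2.

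In the Crabp, receptor and Aldh1a families the same gene made up most of the RNA in every library. Crabp1 contributed 96.5% to 99.8% of the summed Crabp FPKM in Ifitm3 siRNA libraries and 97.0% to 99.8% in control siRNA libraries. Of the summed FPKM of the 3 receptor genes, Rarg held 75.5% to 78.5% in Ifitm3 siRNA libraries and 75.6% to 78.4% in control siRNA libraries. The share of Rara, the receptor gene expressed in most tissues, was 18.7% to 22.1% in Ifitm3 siRNA libraries and 15.8% to 17.0% in control siRNA libraries, and these ranges did not overlap, a difference noticed in the values and not tested. The share of Rarb was 1.40% to 5.80% in Ifitm3 siRNA libraries and 4.82% to 8.61% in control siRNA libraries, with an overlap. Aldh1a1 was the main synthesizing gene in every library. It held 70.1% to 99.1% of the summed Aldh1a FPKM in Ifitm3 siRNA libraries and 92.9% to 97.6% in control siRNA libraries, on sums of only 1.11 to 1.26 FPKM and 1.56 to 2.94 FPKM. Among the RXR partners, Rxra and Rxrb were at similar levels, and Rxrg was at 0.02 FPKM in control siRNA library 2 and listed at 0 elsewhere. In the Cyp26 family the leading gene differed between libraries: Cyp26b1 led in both replicate 2 libraries and Cyp26a1, with 51.8% to 69.6%, in the other 4.

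Of the 9 genes, 7 averaged 0.5 FPKM or more across all 6 libraries and were tested with limma among 13588 genes, on log2(FPKM + 0.1). For genes of low level the pseudocount pulls fold changes toward 0. No member passed an adjusted p of 0.05 (0 of 7, limma with Benjamini-Hochberg adjustment), against 0.00736% of all genes tested. Aldh1a1 and Crabp1, 2 of the 7, were lower with an unadjusted limma p under 0.05 and 0 were higher, while 3.37% of all genes tested were lower and 5.32% higher at this level. That balance depended on the scaling: of all genes 602 were lower and 544 higher with median-ratio scaling, and 604 lower and 513 higher with quantile normalization, against 458 and 723 as deposited. The study screened genes by an absolute logFC over 1 and P under 0.05, read here as log2 and unadjusted. With these thresholds 1 member, Aldh1a1, was lower and 0 were higher, against 1.43% of all genes tested in either direction (194 genes, of which 68 were lower), and 0.927% in the higher direction. The fold change was below 0 in 6 of the 7 members, with a median of -0.47, against 43.2% of all genes tested and a median of 0.04. Among these 6 the signs of Crabp2, Cyp26b1 and Rarg turned in some alternative settings. The members were also chosen with earlier results of these data known. The groups did not overlap in Aldh1a1 and Crabp1, both lower, and for all genes tested this share was 5.69% in the lower and 9.96% in the higher direction. Without both replicate 2 libraries, 2 members were again at an unadjusted p under 0.05 in limma, namely Aldh1a1 and Rarb, both lower, against 4.36% of all genes lower and 5.93% higher in that fit, and Crabp1 was at an unadjusted p of 0.0519.

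Aldh1a1 (GRCm38, chr19:20492715-20643465, plus strand) encodes a retinal dehydrogenase that makes retinoic acid. It was at 0.82, 1.14 and 1.1 FPKM in Ifitm3 siRNA libraries 1, 2 and 3, against 2.87, 1.45 and 2.33 FPKM in control siRNA libraries 1, 2 and 3. Every Ifitm3 siRNA library lay below every control siRNA library, and the smallest gap was to control siRNA library 2. The log2 fold change was -1.01 (SE 0.29; limma, unadjusted p = 0.0104, adjusted p = 0.475), and the exact two-sided permutation test gave p = 0.1, which 3 against 3 libraries cannot go below. Over 14 alternative settings the unadjusted p stayed between 0.00206 and 0.0399 and the adjusted p between 0.307 and 0.920. The size passed the study's thresholds or not depending on single libraries. It was -0.87 without Ifitm3 siRNA library 1, -0.81 without control siRNA library 1 and -0.95 without control siRNA library 3, all under the required size of 1. At about 1 to 3 FPKM the gene is among the lower ones tested.

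The sequence of Aldh1a1 resembles that of the siRNA target. Among 11219 tested protein-coding genes, 10 genes including Ifitm3 (0.0891%) had a GENCODE transcript with at most 3 mismatches to the 19-nt target site, and Aldh1a1 was one of them. The 2 sites are shown in the sense direction, with the bases of Aldh1a1 that differ from the Ifitm3 site in capitals.
Ifitm3 site: gaactactgtgatcaacat
Aldh1a1 site: gGaAtGctgtgatcaacat
The Ifitm3 site lies in the coding sequence, in exon 1 of 2 (GRCm38, chr7:141010503-141010521, minus strand). The Aldh1a1 site lies in the 5′ untranslated region, in exon 3 of 2 of the 3 protein-coding transcripts annotated by GENCODE (GRCm38, chr19:20553118-20553136, plus strand). In the other coding transcript, with 13 exons, the best match had 7 mismatches. The deposited FPKM are per gene and do not say which transcripts were present. Of the other 8 genes with 3 mismatches, 5 had log2 fold changes below 0 and 3 above 0. Among these 8 Rragb alone was at an unadjusted p under 0.05 in limma, with a log2 fold change of 0.50, and Ifitm2, the neighbor of Ifitm3 in the same gene family, was at 0.02. The predicted gene Gm45717 was listed at 0 in all 3 Ifitm3 siRNA libraries, against 0, 352 and 0.87 FPKM in control siRNA libraries 1, 2 and 3, so that a single library held nearly all of its signal (limma, unadjusted p = 0.110). This comparison was added after the values had been seen, and the part of the site in the result was not tested.

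Crabp1 (GRCm38, chr9:54764748-54773110, plus strand), the carrier gene with abundant RNA, was at 1736, 1703 and 2112 FPKM in Ifitm3 siRNA libraries 1, 2 and 3, against 2691, 2438 and 2505 FPKM in control siRNA libraries 1, 2 and 3. All 3 Ifitm3 siRNA libraries were below all 3 control siRNA libraries, with library 3 closest to the controls. The log2 fold change was -0.47 (SE 0.17; limma, unadjusted p = 0.0284, adjusted p = 0.537), and the exact two-sided permutation test gave p = 0.1, the smallest p possible. The unadjusted p from limma was 0.0838 without Ifitm3 siRNA library 1, 0.0611 without Ifitm3 siRNA library 2, 0.117 without control siRNA library 1 and 0.0628 without control siRNA library 3. Crabp1 did not share the high values of the replicate 2 libraries that are described for other members: Ifitm3 siRNA library 2 and control siRNA library 2 were each the lowest of their group.

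Rarb (GRCm38, chr14:16430839-16819156, minus strand) encodes the receptor RARβ, whose promoter is a classical target of retinoic acid. It was at 0.58, 2.84 and 0.90 FPKM in Ifitm3 siRNA libraries 1, 2 and 3, against 2.5, 5.59 and 1.9 FPKM in control siRNA libraries 1, 2 and 3. The replicate 2 library was the highest of each group, and the groups overlapped through Ifitm3 siRNA library 2, which lay above 2 of the control siRNA libraries. The log2 fold change was -1.30 (SE 0.62; limma, unadjusted p = 0.0759, adjusted p = 0.598), and the exact two-sided permutation test gave p = 0.3. Without both replicate 2 libraries the log2 fold change was -1.47 (SE 0.30; limma, unadjusted p = 0.00611, adjusted p = 0.330). The groups did not overlap there, but the share of all genes without overlap was not computed for 2 against 2 libraries. Without Ifitm3 siRNA library 2 alone the log2 fold change was -1.91, with an unadjusted p of 0.00858 in limma. It was -0.85 without Ifitm3 siRNA library 1 and -0.86 without control siRNA library 2, each with an unadjusted p of 0.220 in limma. Over 14 alternative settings the fold change ranged from -1.91 to -0.85. The unadjusted p in limma was under 0.05 in 3 of these, of which 1 left out a single library.

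For the other receptors no difference between the groups was detectable beyond the spread of the libraries. Rara was at 8.32, 9.17 and 9.11 FPKM in Ifitm3 siRNA libraries 1, 2 and 3, against 7.56, 10.3 and 6.62 FPKM in control siRNA libraries 1, 2 and 3. Its log2 fold change was 0.14 (SE 0.18; limma, adjusted p = 0.836). Rarg was at 32.5, 36.9 and 31.3 FPKM in Ifitm3 siRNA libraries 1, 2 and 3, against 34.5, 49.1 and 30.9 FPKM in control siRNA libraries 1, 2 and 3. Its log2 fold change was -0.16 (SE 0.19; limma, adjusted p = 0.827), and the sign turned without control siRNA library 2, to 0.04.

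**Figure D2:**
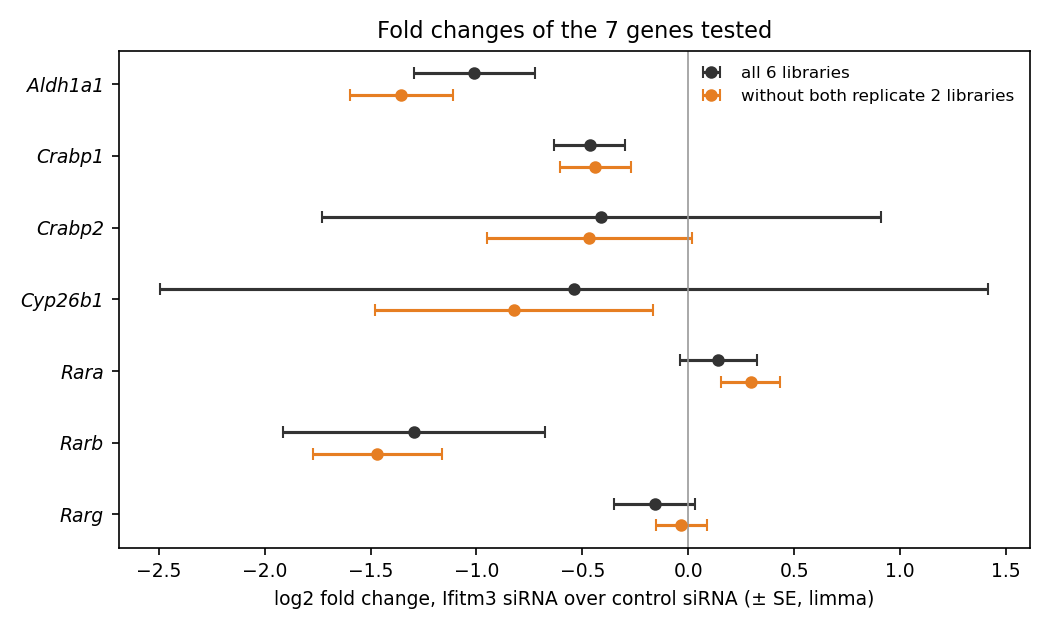
Log2 fold change (horizontal axis, Ifitm3 siRNA over control siRNA, with the standard error from limma) of the 7 genes tested, in all 6 libraries and without both replicate 2 libraries. Aldh1a1 was at -1.01 and -1.35, Rarb at -1.30 and -1.47, and the standard errors of Crabp2 and Cyp26b1 were smaller without the replicate 2 libraries.

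The largest differences in Crabp2 and Cyp26b1 were between libraries of the same group. Crabp2, the carrier that passes retinoic acid to the receptors, was at 3.30, 61.3 and 7.57 FPKM in Ifitm3 siRNA libraries 1, 2 and 3, against 9.19, 75.2 and 5.27 FPKM in control siRNA libraries 1, 2 and 3. Cyp26b1, which encodes an enzyme that degrades retinoic acid, was at 0.20, 24.1 and 0.66 FPKM in Ifitm3 siRNA libraries 1, 2 and 3, against 1.11, 23.6 and 0.49 FPKM in control siRNA libraries 1, 2 and 3. In both genes the replicate 2 libraries of both groups were high and the other 4 low. The lower replicate 2 value was 6.67 times the highest of the other 4 libraries in Crabp2 and 21.3 times in Cyp26b1. The comparison of the groups was correspondingly imprecise, with a log2 fold change of -0.41 (SE 1.32) in Crabp2 and -0.54 (SE 1.96) in Cyp26b1 (limma, adjusted p = 0.945 and 0.951). Both signs turned when single libraries were left out, which also changed the weight of the high replicate 2 value in the group concerned. In Crabp2 the value was 0.48 without Ifitm3 siRNA library 1 and 0.73 without control siRNA library 2. In Cyp26b1 it was 0.74 without Ifitm3 siRNA library 1, 0.07 without Ifitm3 siRNA library 3 and 1.06 without control siRNA library 2. Without both replicate 2 libraries it was -0.47 (SE 0.48) in Crabp2 and -0.82 (SE 0.66) in Cyp26b1. With the replicate number as a block in the fit it was -0.41 (SE 0.38) in Crabp2 and -0.54 (SE 0.50) in Cyp26b1. The unadjusted p in limma was 0.331 for each gene in that fit.

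Of the 7 members tested, 5 were higher in both replicate 2 libraries than in all other 4 libraries, namely Crabp2, Cyp26b1, Rara, Rarb and Rarg, and 0 were lower in both. Over all genes tested, both replicate 2 libraries were above the other 4 in 13.2% and below in 17.7%. In Rara, Rarb and Rarg the lower replicate 2 value was only 1.01, 1.14 and 1.07 times the highest of the other libraries. The lower replicate 2 value exceeded the highest of the other 4 libraries by over 1.5 times in 2 of the 7 members, against 1.42% of all genes tested (193 genes), and by over 5 times in the same 2 members, against 0.0957% (13 genes). The sizes of 1.5 and 5 were chosen after the values had been seen. Replicate number 2 is the only label that these libraries share, and no label says what the number stands for.

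Some other genes of retinoid metabolism were also high in the replicate 2 libraries. A list of 51 further genes was written from general knowledge, of which 33 were tested. In 11 of the 33 both replicate 2 libraries were above the other 4 and in 3 below, against 13.2% and 17.7% of all genes tested. Stra6, which encodes the receptor for the retinol carrier of the blood, was at 0.13, 10.9 and 0.87 FPKM in Ifitm3 siRNA libraries 1, 2 and 3, against 0.38, 16.9 and 0.18 FPKM in control siRNA libraries 1, 2 and 3. It passed the filter on low values through the replicate 2 libraries. The replicate 2 libraries of both groups were far above the rest. Dhrs3, which encodes a reductase that turns retinal back to retinol, was at 5.26, 65.2 and 11.7 FPKM in Ifitm3 siRNA libraries 1, 2 and 3, against 27.5, 89.7 and 13.1 FPKM in control siRNA libraries 1, 2 and 3. Cyp26a1, the degrading enzyme best known as induced by retinoic acid, was at 0.96, 6.63 and 1.33 FPKM in Ifitm3 siRNA libraries 1, 2 and 3, against 1.56, 5.15 and 1.60 FPKM in control siRNA libraries 1, 2 and 3. Rdh5, which encodes a retinol dehydrogenase, and Tgm2, which encodes a transglutaminase known to respond to retinoic acid, were also higher in both replicate 2 libraries, at 1.77 and 1.65 times the highest of the other 4. In the part of the list written as genes known to respond to retinoic acid, Tgm2 was the only 1 of 6 tested with this pattern. Meis1, Meis2, Rarres1, Foxc1 and Vax2 were neither above nor below the other 4 in both. The summed FPKM of the Cyp26 genes was 31.6 in Ifitm3 siRNA library 2 and 29.5 in control siRNA library 2, and Cyp26b1 held 76.3% and 80.1% of these sums. Not all members of the list had this pattern: Rdh11, Adh5 and Rxra were lower in both replicate 2 libraries, and Adh7 was at 10.2 FPKM in Ifitm3 siRNA library 2 and at 2.34 FPKM in control siRNA library 2.

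**Figure D3:**
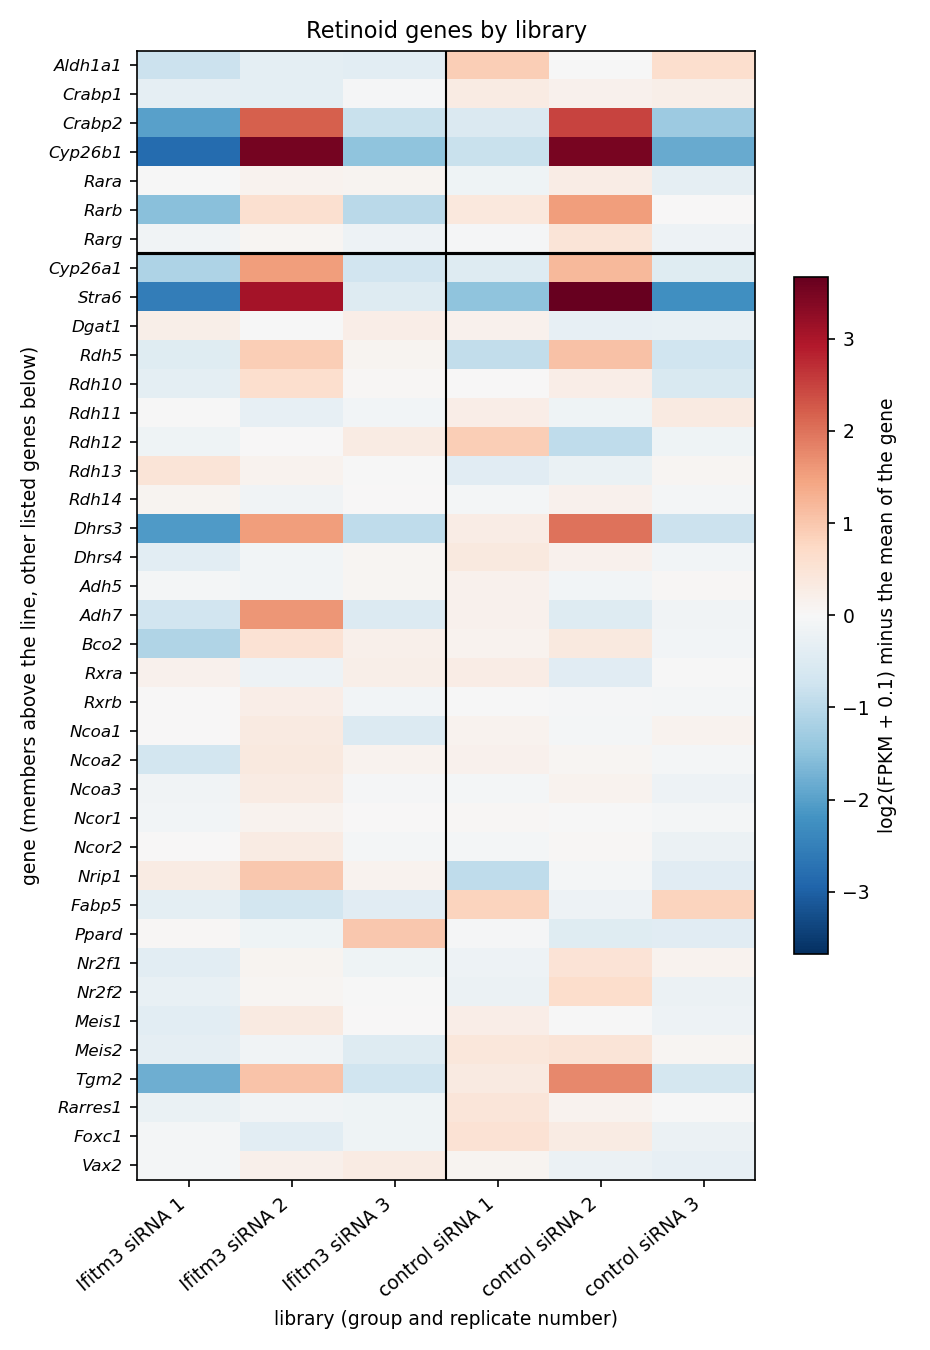
Heat map of retinoid genes tested (rows, the 7 members above the line and other listed genes below) in the 6 libraries (columns, by group and replicate number); color is log2(FPKM + 0.1) minus the mean of the gene. Strong red fields lie in Ifitm3 siRNA library 2 and control siRNA library 2, in Cyp26b1, Stra6, Crabp2, Dhrs3, Tgm2 and Cyp26a1. Adh7 had a strong red field in Ifitm3 siRNA library 2 but not in control siRNA library 2.

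**Figure D4:**
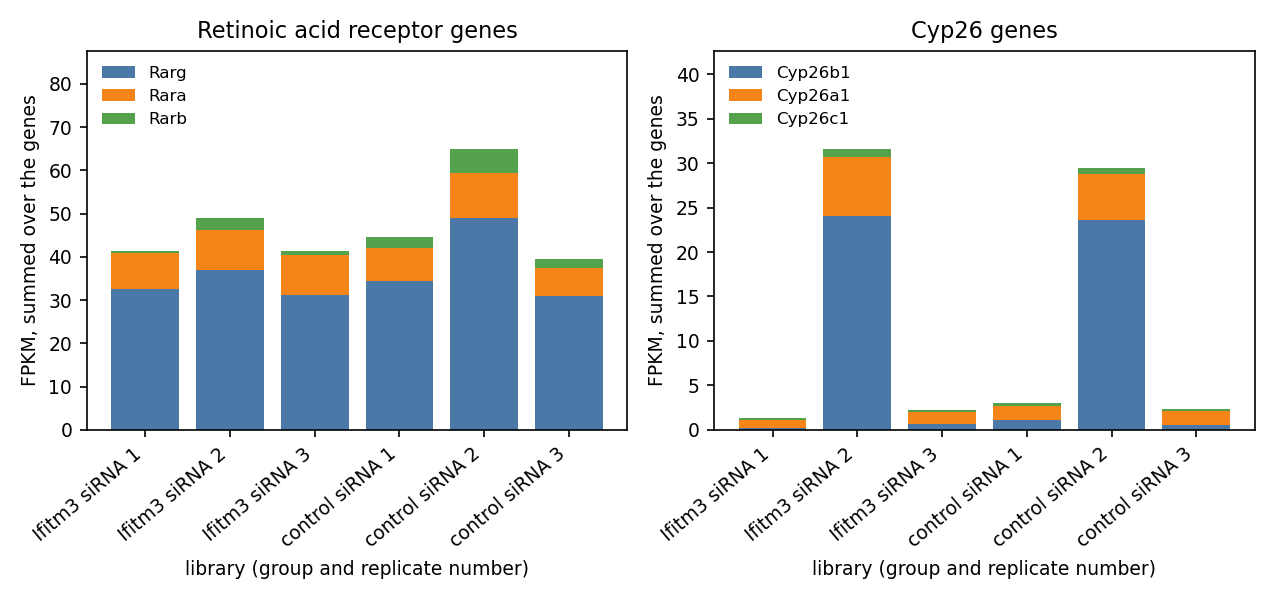
Summed FPKM (vertical axes from 0) of the 3 retinoic acid receptor genes and of the 3 Cyp26 genes in each library, stacked by gene. The Cyp26 sum was 31.6 and 29.5 FPKM in Ifitm3 siRNA library 2 and control siRNA library 2, while Rarg held 75.5% to 78.5% of the receptor sum in every library.

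Markers of other cell types were compared in the same libraries. The summed level of 7 markers of the retinal pigment epithelium was 1.08 and 1.16 FPKM in the replicate 2 libraries and 0.24 to 0.35 FPKM in the other 4. This gap came from Ttr, a carrier of thyroid hormone, which was at 0.70 FPKM in Ifitm3 siRNA library 2 and 0.85 FPKM in control siRNA library 2 and listed at 0 in the other 4. Without Ttr the sums were 0.38 and 0.31 FPKM in the replicate 2 libraries and 0.24 to 0.35 FPKM in the other 4. Of this list 5 defining markers, Rpe65, Best1, Tyr, Mitf and Lrat, had means under 0.1 FPKM, and 0 of 7 averaged 1 FPKM. The 7 markers of Müller glia and astrocytes summed to 423 and 629 FPKM in the replicate 2 libraries and to 562 to 736 FPKM in the other 4, nearly all of it Vim, a filament gene of many cell types. Without Vim the sums were 21.06 and 17.14 FPKM in Ifitm3 siRNA library 2 and control siRNA library 2. In the other 4 they were 15.61 to 17.97 FPKM, so control siRNA library 2 lay within their range. In this list Aqp4, a water channel gene, was at 2.60 FPKM in Ifitm3 siRNA library 2 and 0.86 FPKM in control siRNA library 2. It was at most at 0.48 FPKM in the other 4. Rlbp1, Glul, Slc1a3, Kcnj10, Gfap and Vim were neither above nor below the other 4 in both replicate 2 libraries. The sum of 11 progenitor markers was 473 and 596 FPKM in the replicate 2 libraries and 318 to 499 FPKM in the other 4, and that of 9 fibroblast or mesenchyme markers was 186 to 203 FPKM against 118 to 224 FPKM. Within the progenitor list Hes1, a target of Notch signaling, was at 30.1 FPKM in Ifitm3 siRNA library 2 and 29.6 FPKM in control siRNA library 2, and at most at 9.85 FPKM in the other 4. Sox2 was also above the other 4 in both, and Mki67 was below them in both. The 4 microglial markers, all close to 0, summed to 0.21 to 0.24 FPKM in the replicate 2 libraries and to 0.02 to 0.09 FPKM in the other 4. The sums of the photoreceptor, retinal neuron and endothelial markers overlapped between these libraries. The part of these markers in the pattern of Crabp2 and Cyp26b1 was not tested.

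The promoters of the retinoid genes were searched for the response element that RAR and RXR bind, 2 copies of a half-site in the same direction with 5 bases between them. The half-sites searched were AGGTCA as well as AGTTCA, and also GGGTCA as well as GGTTCA, on both strands, in RefSeq promoters of GRCm38.p6 from 250 bases before to 50 bases after the start. Such a repeat was found in 32 of 32851 promoters (0.0974%). In 7 members and 35 of the 51 further genes a promoter sequence could be matched, and 2 genes held the repeat, Rarb and Cyp26a1. The 30 bases around each are shown along the strand of the gene, with the half-sites in capitals.
Rarb promoter: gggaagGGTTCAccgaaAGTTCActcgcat
Cyp26a1 promoter: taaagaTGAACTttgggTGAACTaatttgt
In Rarb the repeat spans 53 to 37 bases before the start (the 30 bases are chr14:16575506-16575535, minus strand). In Cyp26a1 it spans 32 to 16 bases before the start and reads on the opposite strand (chr19:37697770-37697799, plus strand). The promoters of Crabp1, Cyp26b1, Aldh1a1, Aldh1a2, Rara and Rarg did not hold these letters in the window, nor the same half-sites spaced by 1 or 2 bases, which occurred in 0.222% and 0.268% of all promoters. Of the further genes Bco1 held the repeat spaced by 1 base, and the promoters of Stra6 and Dhrs3 held none of these repeats. A match is a description of the letters and says nothing on binding in these cells.

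In the comparison of Ifitm3 siRNA with control siRNA, 1 of the 33 further genes was higher and 3 were lower at an unadjusted p under 0.05 from limma, and 0 passed after adjustment. Of all genes tested 5.32% were higher and 3.37% lower at this level. The median log2 fold change of the 33 genes was -0.01, against 0.04 for all genes tested. Fabp5, an alternative carrier of retinoic acid, was at 51.7, 41.7 and 49.4 FPKM in Ifitm3 siRNA libraries 1, 2 and 3, against 117, 58.7 and 118 FPKM in control siRNA libraries 1, 2 and 3. The groups did not overlap, control siRNA library 2 was the lowest control, and the log2 fold change was -0.97 (SE 0.29; limma, adjusted p = 0.484). It was -1.31 without control siRNA library 2 and stayed below 0, at an unadjusted p under 0.05 in limma, in all 14 alternative settings. Meis2, a homeobox gene known to respond to retinoic acid, was at 4.02, 4.69 and 3.68 FPKM in Ifitm3 siRNA libraries 1, 2 and 3, against 6.81, 7.11 and 5.36 FPKM in control siRNA libraries 1, 2 and 3. The groups did not overlap and the log2 fold change was -0.62 (SE 0.16; limma, adjusted p = 0.460). Rarres1, named for its response to retinoic acid, had a log2 fold change of -0.37 (limma, adjusted p = 0.570), and its unadjusted p was under 0.05 in 5 of the 14 alternative settings and in 1 of the 6 that left out a single library. Nrip1, which encodes a corepressor of nuclear receptors, had a value of 0.95 (limma, adjusted p = 0.520), with 2.23 to 4.18 FPKM in Ifitm3 siRNA cells and 1.03 to 1.92 FPKM in control siRNA cells. Its unadjusted p in limma was 0.0576 without Ifitm3 siRNA library 2 and 0.0638 without control siRNA library 1. Among the lists with no gene at this level, the values closest to it were those of Rdh13 (log2 fold change 0.39), Rdh11 (-0.28), Dgat1 (0.28) and Dhrs4 (-0.28), and Cyp26a1 was at -0.18. Of the genes high in the replicate 2 libraries Stra6 was at 0.04 and Dhrs3 at -0.997 (limma, unadjusted p = 0.369). Of the nuclear partners and the response genes with the next smallest p, Ppard was at 0.59, Nr2f1 at -0.29, Vax2 at 0.28 and Foxc1 at -0.41, and none was at an unadjusted p under 0.05 in limma. The RXR genes Rxra and Rxrb were at 0.11 and 0.10 on this scale.

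To describe which genes had a pattern like that of a member, the root mean square difference of the gene-centered log2 values over the 6 libraries was taken, among 12174 genes that averaged 1 FPKM or more. The 3 genes closest to Crabp1 were Gsdmd (0.06), Cmtr1 (0.07) and Gm26782 (0.07). Those closest to Aldh1a1 were the predicted genes Gm5539 (0.11), Gm13864 (0.14) and Gm6286 (0.16). For Cyp26b1, added after its values had been seen, the closest were Stra6 (0.57), Plekhb1 (0.80) and Crabp2 (0.84). With 6 libraries such likeness is a description only.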

How the data were processed

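The authors deposited 1 table of gene-level FPKM, rounded to 2 decimals. The submitters' processing notes name StringTie 1.3.4d, HISAT2 2.0.4 and cutadapt 1.9, as well as hg18, which is a human build, while the gene identifiers are of the mouse. No annotation is named. That the values are FPKM was inferred from StringTie and from the values, which were no whole numbers and whose sums differed between libraries. Poly(A) RNA libraries with strand marking were sequenced as read pairs.

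Genes averaging 0.5 FPKM or more across all 6 libraries were compared on log2(FPKM + 0.1) with limma 3.58.1 in R 4.3.3 (condition only, two-sided, variance moderated along the mean) and Benjamini-Hochberg adjustment over 13588 genes. FPKM are no counts, so no count test was run. The study's methods name no test for the sequencing data in particular. The limma step was tested on simulated data. The members, lists, tests and alternatives were chosen with earlier results of these data known. Beside the members and Ifitm3, in each list of retinoid genes up to 4 with the lowest p and any at an unadjusted p under 0.05 were to be named; genes named for the pattern of the replicate 2 libraries and the siRNA and promoter searches were chosen after their values were seen. The pairing of libraries by replicate number, leaving out libraries, scaling, filters, the pseudocount and the variance trend were varied. Some listed genes are counted but not reported here by name. Coordinates are of GENCODE vM21 (GRCm38) and RefSeq promoters of GRCm38.p6. Python 3.11.15 with NumPy 2.4.6 and SciPy 1.17.1 was used for the other steps.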

Additional observations from a re-analysis of the deposited data

How the results depend on the processing

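Over the 14 alternative settings Aldh1a1, Crabp1, Rara and Rarb kept the direction of their log2 fold change, and 0 of the 7 members passed an adjusted p of 0.05 in limma in any setting. Ifitm3 did not pass in any setting either, with an adjusted p of 0.0797 to 0.510 in limma. The call of Crabp1 at an unadjusted p under 0.05 in limma was lost with no filter on low values (-0.47, unadjusted p = 0.257) and without both replicate 2 libraries (-0.44, unadjusted p = 0.0519), and in the fits that leave out 1 library each its log2 fold change lay between -0.56 and -0.41. In these fits the log2 fold change of Crabp2 ranged from -1.61 to 0.73, that of Cyp26b1 from -2.43 to 1.06 and that of Rarg from -0.30 to 0.04, so that their directions turned; without control siRNA replicate 2, Rarg was at 0.037. The cause of the loss with no filter was not tested.

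The number of members past the study's thresholds, 1 in the comparison as reported, was 0 at a pseudocount of 1, which shrinks low genes by construction, 2 without both replicate 2 libraries, and 0 to 2 when single libraries were left out. The number of all genes past these thresholds, 194 as reported, was 80 with a pseudocount of 1, 413 when low genes were kept and 306 without both replicate 2 libraries, and it lay between 166 (without control siRNA replicate 1) and 352 (without control siRNA replicate 2) when single libraries were left out. Of the 194 genes 126 were higher, against 110 of 189 with median-ratio scaling and 95 of 174 with quantile normalization.

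Samples of the same replicate number did not all deviate together from their group means (correlations 0.07, 0.43 and 0.04 over genes for numbers 1, 2 and 3), so the numbers were not taken as pairs, and Ifitm3 siRNA replicate 1 correlated best with control siRNA replicate 3. With the replicate block 2 members passed the study's thresholds, Aldh1a1 and Rarb (log2 fold change -1.30, unadjusted p = 0.00427 in limma), and 245 of all genes did. Every member had a single identifier, so summing identifiers changed nothing. Without read numbers, differences between genes near 1 FPKM cannot be given a counting error.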
